A study of Rattus norvegicus with 6 samples.

Results

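The genes described here encode proteins of the cytosolic ribosome, measured in the rat left ventricle in diabetes. They were chosen by name alone: every probe set whose only annotated symbol began with Rpl or Rps and a digit, or with Rplp, without the S6 kinase genes (Rps6k). This gave 47 probe sets for 43 genes, of 15866 probe sets and 10411 named genes on the array, and the probe set with the highest mean signal over the 6 arrays stood for its gene. Of the 43 genes, 30 had symbols of the large subunit (Rpl and Rplp0) and 13 of the small subunit (Rps).

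RNA came from the left ventricle of 3 rats labelled diabetic and 3 rats labelled normal, and each rat had its own 1-colour Affymetrix array. The labels name no strain, sex, age, agent or diet that produced the diabetes, nor its duration, and no treatment of either group. The deposited values are signal intensities on a linear scale. The ventricle holds several cell types, so fewer cells of a type and less RNA per cell cannot be told apart.

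The ribosome joins amino acids into protein in every cell. Its small subunit reads the messenger RNA, its large subunit forms the peptide bond, and cells make the proteins of both subunits in step with the ribosomal RNA. In mammals the mRNAs of these proteins begin with a C followed by a run of pyrimidines (C or T), the terminal oligopyrimidine tract or TOP motif, through which the kinase complex mTORC1 controls their translation. An array measures the level of these mRNAs and not how well they are translated.

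No ribosomal protein gene passed the test for a difference between the groups, yet most had slightly more signal in the diabetic ventricles. Of the 43 genes, 41 were bright enough to be tested, and none had an adjusted p under 0.05 in limma, a linear model that shares the estimate of spread across all probe sets. By the same rule 1.5% of all 9519 tested probe sets rose and 1.38% fell. At an unadjusted p under 0.05, 13 of the 41 genes were higher and 0 were lower, against 9.54% higher and 10.3% lower of all tested probe sets. Most of these genes are very bright, and of the 794 probe sets above the 95th percentile of signal 15.6% were higher and 9.32% lower at that p. The log2 fold change of diabetic over normal was positive in 34 genes and negative in 7, or 82.9% positive, against 48.0% of all tested probe sets. Its median over the 41 genes was 0.24, against -0.01 over all tested probe sets and -0.00 over those above the 95th percentile of signal.

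Runs of pyrimidines were looked for at the start of these genes, since their mRNAs are known for this feature and most of their signals differed in the same direction. RefSeq promoter entries of the rat assembly GRCr8, each holding 250 bases before and 50 bases after the annotated start, were found for 38 of the 43 genes. The lines that follow give, 5′ to 3′, the last 40 bases before the start and the first 20 bases of the transcript, with the pyrimidine run at or nearest to the start in capitals. Rps24, Rps28, Rpl21 and Rps23 are shown as the 4 genes with an entry that had the largest log2 fold changes among those whose diabetic arrays all lay above the normal ones. Rpl34, Rpl35 and Rplp0 are shown as 3 of 11 genes whose annotated transcript itself opens with C and further pyrimidines. In these 3 every diabetic array lay above every normal one, which held for 6 of the 11. Rpl3l, Rpl7l1 and Rps4y2 are shown because they are look-alike symbols with a negative log2 fold change.
Rps24, chr16:96477-96536, plus strand: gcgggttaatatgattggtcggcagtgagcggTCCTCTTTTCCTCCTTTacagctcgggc
Rps28, chr7:15311314-15311373, minus strand: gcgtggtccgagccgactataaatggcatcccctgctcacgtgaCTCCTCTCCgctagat
Rpl21, chr12:13386134-13386193, minus strand: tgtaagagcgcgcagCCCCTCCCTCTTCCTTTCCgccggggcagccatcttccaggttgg
Rps23, chr2:23814477-23814536, plus strand: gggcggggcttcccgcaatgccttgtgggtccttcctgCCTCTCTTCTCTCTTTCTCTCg
Rpl34, chr2:221962264-221962323, minus strand: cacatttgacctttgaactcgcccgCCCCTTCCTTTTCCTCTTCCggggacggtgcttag
Rpl35, chr3:43165902-43165961, minus strand: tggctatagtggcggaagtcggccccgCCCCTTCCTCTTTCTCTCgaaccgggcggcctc
Rplp0, chr12:46718371-46718430, minus strand: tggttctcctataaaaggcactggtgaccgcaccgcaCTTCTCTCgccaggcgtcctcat
Rpl3l, chr10:14258406-14258465, plus strand: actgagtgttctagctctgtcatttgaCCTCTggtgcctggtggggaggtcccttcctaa
Rpl7l1, chr9:21695678-21695737, plus strand: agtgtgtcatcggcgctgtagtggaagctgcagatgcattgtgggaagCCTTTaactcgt
Rps4y2, chr4:183000873-183000932, plus strand: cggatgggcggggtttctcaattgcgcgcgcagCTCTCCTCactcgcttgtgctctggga

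The runs in capitals had 21 bases in Rps23, 20 in Rpl34 and 19 in Rpl21, 8 each in Rplp0 and Rps4y2, and 5 each in Rpl3l and Rpl7l1. Rpl3l holds a second, longer run within the transcript. A run of at least 8 pyrimidines on the transcribed strand within 40 bases of the start was found in 30 of the 38 genes (78.9%), against 30.2% of all 33469 promoter entries. A transcript whose first base was C and whose next 4 bases were each C or T was annotated for 11 of the 38 genes (28.9%), against 2.63% of all entries. The letters CTTTCC, on either strand and open to overlap with those runs, were present in 16 (42.1%), against 26.4% of entries. The 11 tested genes with the pyrimidine start had a median log2 fold change of 0.32, and the 26 tested genes without it had a median of 0.21. For the run of at least 8 pyrimidines the medians were 0.30 in the 30 tested genes with it and 0.20 in the 7 without it. The split by CTTTCC ran the other way, with a median of 0.16 in the 16 tested genes with it and 0.25 in the 21 without it. None of these splits was tested. These matches depend on where the annotation puts the first base, and describe letters only.

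Among proteins of the small subunit, Rps24, Rps28 and Rps23 had the highest log2 fold changes. Rps24, a small-subunit protein needed for ribosomal RNA maturation, had signals of 13296.6, 14117.7 and 17910.4 in the diabetic arrays, against 8994.7, 9993.8 and 9781.1 in the normal arrays. Every diabetic array lay above every normal one, and the difference on the log2 scale was 0.64 ± 0.16 (SE from limma), with an adjusted p of 0.070. Rps28, a small protein near the exit of the mRNA channel, had 8836.4, 9859.3 and 10254.7 in the diabetic arrays, against 5834.7, 7325.3 and 6076.6 in the normal arrays, again with no overlap (log2 fold change 0.59 ± 0.15, limma adjusted p = 0.0782). Rps23, which lies at the decoding centre, had 16351.6, 17679.5 and 18719.9 in the diabetic arrays and 10734.1, 15434.9 and 12886.7 in the normal arrays. Its groups did not overlap either, but normal array 2 came close to diabetic array 1, and the log2 fold change of 0.45 ± 0.17 had a limma adjusted p of 0.187.

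Among proteins of the large subunit, Rpl23a came first. Rpl23a, which lies at the exit of the tunnel through which the new protein leaves the ribosome, had signals of 8366.5, 10239.3 and 10026.7 in the diabetic arrays, against 5737.4, 6699.9 and 6242.8 in the normal arrays. The lowest diabetic array lay above the highest normal one. The log2 fold change of 0.61 ± 0.15 had an adjusted p of 0.0683 in limma, the smallest of the 41 genes. Rpl21 had 3183.4, 3231.3 and 4206.5 in the diabetic arrays and 2148.7, 2625.4 and 2618.6 in the normal arrays (log2 fold change 0.51 ± 0.17, limma adjusted p = 0.137). Rpl34 had 9329.4, 10528.7 and 11852.7 in the diabetic arrays and 7976.6, 7601.0 and 7876.6 in the normal arrays (log2 fold change 0.43 ± 0.15). Rpl24, which bridges the subunits, had 4363.9, 4395.0 and 6000.4 in the diabetic arrays and 3931.6, 3517.2 and 3480.1 in the normal arrays (log2 fold change 0.42 ± 0.17). In these 3 genes no arrays of the groups overlapped, and in each the third diabetic array was the highest.

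Rplp0, the base of the stalk that recruits the elongation factors and a gene often used to normalise PCR, had signals of 12409.6, 11943.4 and 13129.0 in the diabetic arrays, against 10458.0, 9624.2 and 9854.2 in the normal arrays. The groups did not overlap, and the means of 12494 ± 597 in diabetic and 9979 ± 431 in normal ventricles (SD, n = 3 each) correspond to 0.32 ± 0.14 on the log2 scale (limma adjusted p = 0.225). Rpl5 and Rpl11, which bind the 5S ribosomal RNA and can also hold the p53 regulator Mdm2, had log2 fold changes of 0.26 ± 0.16 and 0.25 ± 0.19, both with overlapping arrays. Rps6, the ribosomal protein that S6 kinase phosphorylates, had 18946.4, 14745.4 and 15816.5 in the diabetic arrays and 14748.1, 13436.2 and 15321.8 in the normal arrays. Its groups overlapped, with a log2 fold change of 0.18 ± 0.15. Rpl7a, another large-subunit protein and among the 5 brightest, had a log2 fold change of 0.16 ± 0.14 and overlapping arrays.

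**Figure D1:**
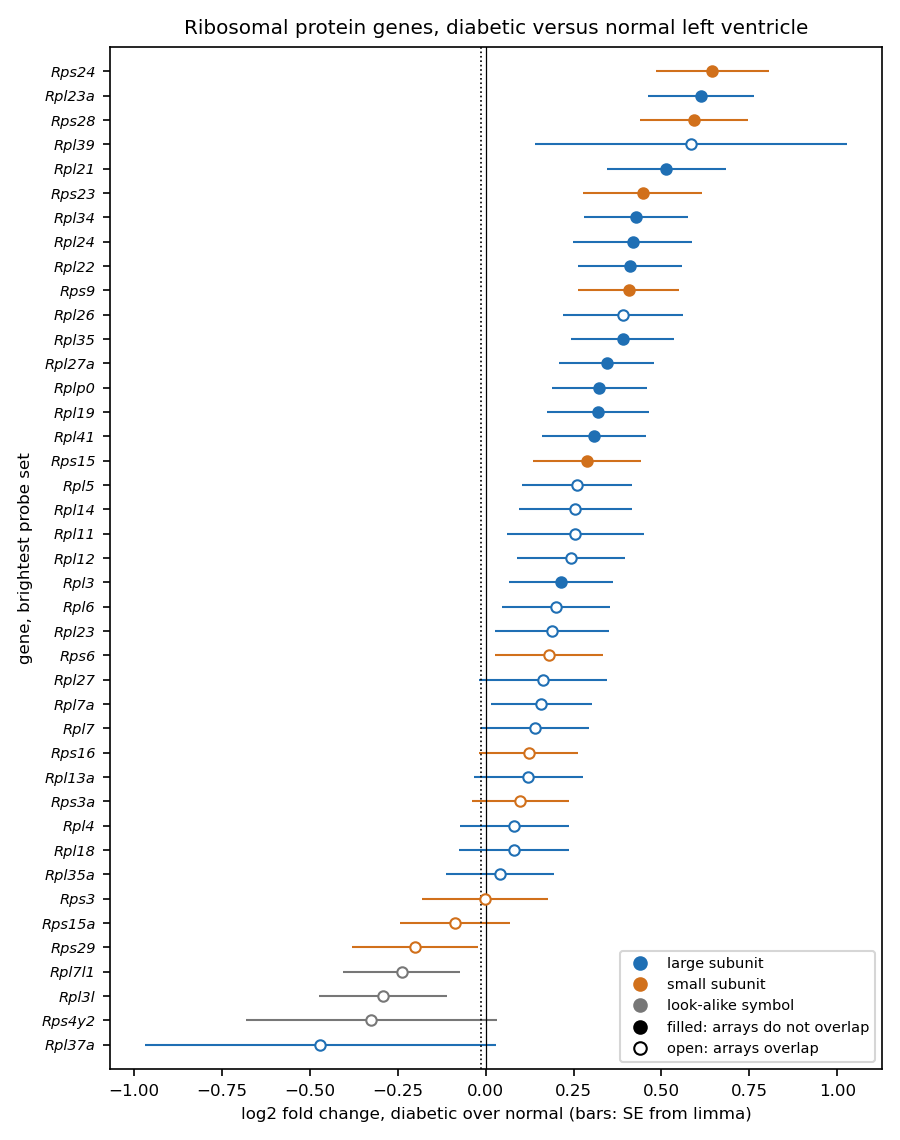
Each row is a tested ribosomal protein gene (41 genes, brightest probe set), with its log2 fold change of diabetic over normal on the horizontal axis and a bar of 1 standard error from limma to each side. Colour gives the subunit or a look-alike symbol, filled points are the 16 genes whose arrays do not overlap, and the dotted line is the median of all tested probe sets (-0.01). The genes run from Rps24 at 0.64 down to Rpl37a at -0.47, with 34 to the right of 0.

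The 3 arrays of each group did not overlap in 16 of the 41 genes, all 16 with the diabetic arrays above. That is 39.0% of the genes, against 12.1% of all tested probe sets with the diabetic arrays above and 13.6% with them below. Bright probe sets separate the groups more often, and 38 of the 43 genes lay above the 95th percentile of signal. Above the 80th percentile 16.5% of probe sets had all diabetic arrays above and 18.7% below, and above the 95th percentile 21.4% and 18.5%. Of the 16 genes, 11 belong to the large and 5 to the small subunit. Beside those already given they were Rpl22, Rps9, Rpl35, Rpl27a, Rpl19, Rpl41, Rps15 and Rpl3, with log2 fold changes of 0.41, 0.41, 0.39, 0.34, 0.32, 0.31, 0.29 and 0.21. Diabetic array 1 held this count down: without it, 27 genes had all diabetic arrays above and 1 had them below, against 18.6% above of all tested probe sets.

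The count of 0 has to be read with the size of the experiment. For a single gene, exact permutation of 3 and 3 arrays allows no p under 0.1, and the median standard error of the genes was 0.155 on the log2 scale. When limma's prior spread was allowed to follow the signal (an intensity trend), Rpl23a, Rps24 and Rps28 passed as higher, with adjusted p of 0.0153, 0.0165 and 0.0189. In that fit 2.84% of all tested probe sets were higher and 2.7% lower. The same 3 genes passed with a pseudocount of 64, with filters at the 60th and 80th percentile of signal and at a threshold of 0.1, where 2.16%, 3.44%, 6.49% and 3.42% of tested probe sets were higher. At the 80th percentile these were 3 of 38 genes, a share near that of all probe sets. With a filter at the 95th percentile, 9 of 38 passed as higher, against 12.2% of tested probe sets.

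Large-subunit genes had a median log2 fold change of 0.25 (29 tested, 26 positive) and small-subunit genes one of 0.15 (12 tested, 8 positive). The difference between the subunits was not tested. The log2 fold changes were closer together than those of the array as a whole, with an SD of 0.26 among the 41 genes and 0.385 over all tested probe sets.

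**Figure D2:**
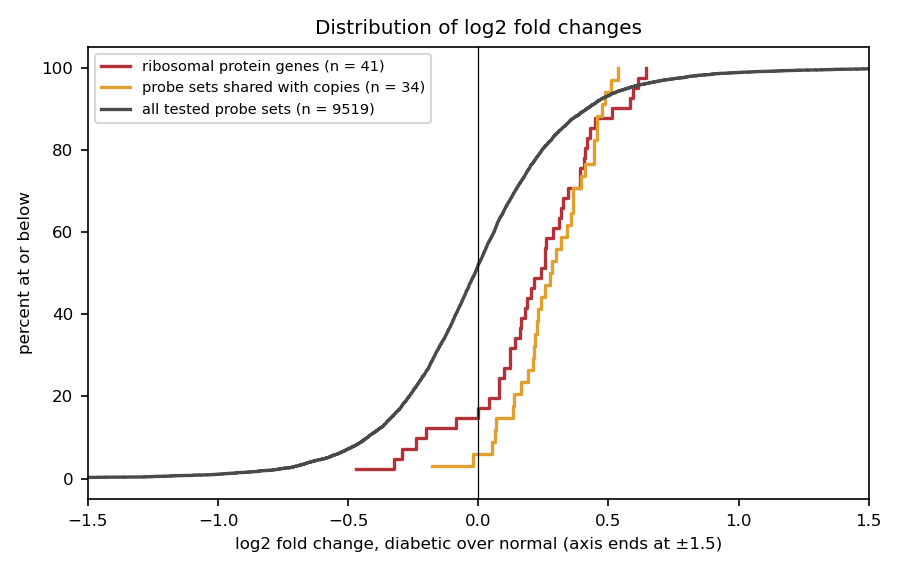
Curves give the percent of genes or probe sets (vertical axis) with a log2 fold change of diabetic over normal at or below the value on the horizontal axis, for the 41 ribosomal protein genes, for 34 ribosomal protein probe sets whose annotation lists several symbols, and for all 9519 tested probe sets. The medians are 0.24, 0.28 and -0.01, and both ribosomal curves lie to the right of the grey one over most of their length.

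The difference was visible on the arrays one by one, though not to the same degree. Each gene's log2 signal was set against its mean over the 6 arrays. The median of the 41 genes was then 0.02, 0.14 and 0.23 in diabetic arrays 1, 2 and 3, and -0.17, -0.07 and -0.16 in normal arrays 1, 2 and 3. All 3 diabetic medians lay above all 3 normal ones, and diabetic array 1 was the lowest of its group. In diabetic arrays 21, 34 and 36 of the 41 genes were above their own mean, against 7, 14 and 12 in normal arrays. The summed signal of all 43 genes, tested or not, made up 3.32% ± 0.13 of all signal in diabetic ventricles and 2.92% ± 0.11 in normal ventricles (SD, n = 3 each).

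**Figure D3:**
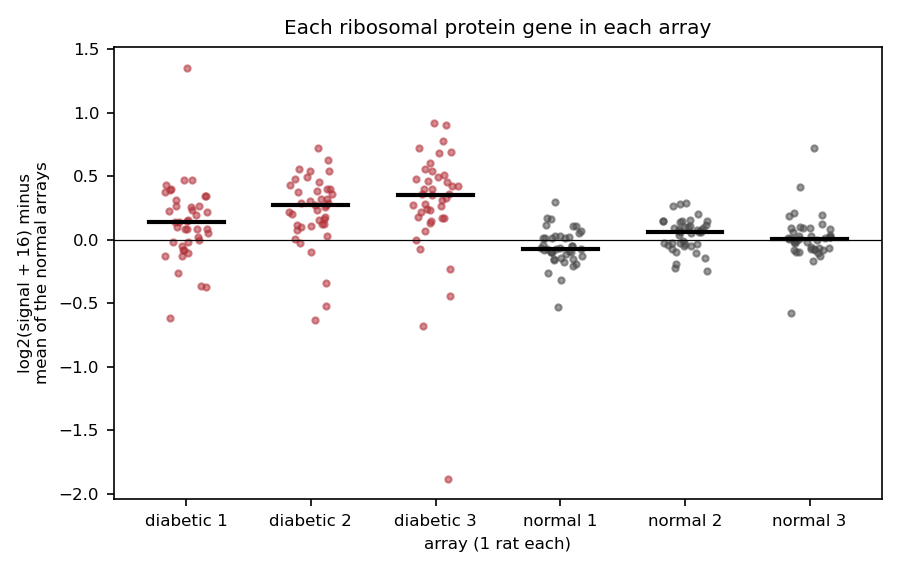
Each point is one of the 41 ribosomal protein genes in one array (1 rat), as log2(signal + 16) minus the mean of the normal arrays; black lines mark the median of each array. The 3 diabetic arrays are on the left and their medians lie above those of the normal arrays; the lowest point, at -1.88 in diabetic array 3, is Rpl37a, and the highest, at 1.35 in diabetic array 1, is the dim gene Rpl39.

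Of the standard members, 4 had negative log2 fold changes, and in Rpl37a a single array decided the sign. Rpl37a, a small zinc-finger protein of the large subunit, had signals of 27798.3, 31321.9 and 6791.8 in the diabetic arrays, against 22495.0, 30523.5 and 22898.2 in the normal arrays. Diabetic array 3 was far below the other 5 arrays, and the log2 fold change of -0.47 ± 0.50 became 0.24 without it. Rps29, the brightest of the genes, had 27984.9, 36187.6 and 24633.9 in the diabetic arrays and 37707.1, 31915.9 and 31429.2 in the normal arrays. Its groups overlapped (log2 fold change -0.20 ± 0.18). Rps15a, Rps3 and Rpl35a lay near 0, with log2 fold changes of -0.09, -0.00 and 0.04 and overlapping arrays.

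The look-alike symbols mostly name paralogs or copies that are not standard members of every ribosome. All 3 that were tested through a probe set with a single symbol had negative log2 fold changes, none past the test, and all with overlapping arrays. Probe sets with several symbols, which the choice of genes left out, include some annotated to look-alike symbols that had positive log2 fold changes. These were 0.07 ± 0.18 where the symbols include Rpl22l1 and 0.46 ± 0.18 where they include Rpl37l1, also with overlap. Where they include Rps4x, which the naming rule also counts, the value was 0.19 ± 0.15, with overlap. Which of its symbols such a probe set reads was not tested. Rpl3l, which in mouse stands in for Rpl3 in heart and skeletal muscle, had 2880.5, 4331.0 and 3762.8 in the diabetic arrays, against 3959.3, 4607.1 and 4729.7 in the normal arrays. The lowest 2 diabetic arrays lay under all normal arrays and the third did not (log2 fold change -0.29 ± 0.18, limma adjusted p = 0.415), while Rpl3 itself had 5367.2, 5226.7 and 6429.8 in the diabetic arrays and 4623.7, 5180.6 and 4818.4 in the normal arrays (log2 fold change 0.21 ± 0.15). The difference between the pair was not tested. Rpl7l1 had a log2 fold change of -0.24 ± 0.17. The dim Rps4y2 had 232.3, 110.7 and 106.2 in the diabetic arrays and 120.1, 155.4 and 307.6 in the normal arrays, and its log2 fold change of -0.32 ± 0.36 was 0.04 without normal array 3. Rps27l, a paralog of Rps27 that p53 induces, was below the filter on dim probe sets, with signals of 77.9 to 123.3 in the diabetic arrays and 79.9 to 111.2 in the normal arrays.

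**Figure D4:**
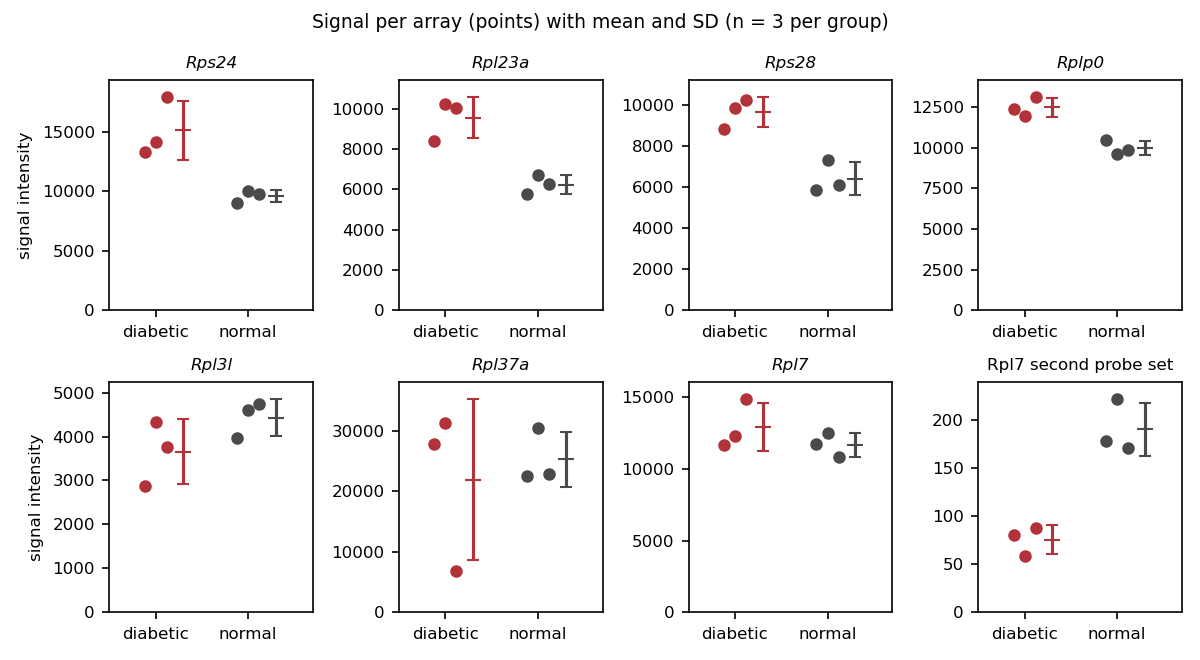
Signal intensity of each array (points, linear axis from 0) with the mean and SD (n = 3 per group) beside them, diabetic left and normal right, for 7 genes and for the second probe set of Rpl7. The groups are apart in Rps24, Rpl23a, Rps28 and Rplp0, overlap in Rpl3l, Rpl37a and the bright probe set of Rpl7, and are apart the other way in the second probe set of Rpl7.

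Probe sets of one gene did not always move alike. Rpl7 was read by a bright probe set with 11613.8, 12262.4 and 14822.2 in the diabetic arrays and 11708.6, 12461.5 and 10792.0 in the normal arrays, which overlapped (log2 fold change 0.14 ± 0.15). Its second, dim probe set had 80.8, 58.7 and 87.4 in the diabetic arrays and 178.3, 221.3 and 170.3 in the normal arrays. It was the only tested probe set of these genes to pass the test, as lower in diabetic ventricles (log2 fold change -1.17 ± 0.18, limma adjusted p = 0.0123). The second probe set of Rpl7l1 had a log2 fold change of -0.02 ± 0.20, against -0.24 ± 0.17 for the first, and those of Rpl14 and Rps24 were below the filter. Rpl30, with 61.2 ± 13.7 in diabetic and 65.1 ± 10.9 in normal ventricles (SD, n = 3 each), was not tested through this probe set. Another, bright probe set annotated to Rpl30 and copies of it had 10445.7, 10112.9 and 10518.7 in the diabetic arrays and 8515.4, 8807.2 and 9571.1 in the normal arrays, with no overlap (log2 fold change 0.21 ± 0.14). Rpl39, which lines the exit tunnel, was also dim: 380.1, 92.1 and 276.7 in the diabetic arrays and 174.5, 172.0 and 87.8 in the normal arrays, with overlap (log2 fold change 0.58 ± 0.44, limma adjusted p = 0.513).

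**Figure D5:**
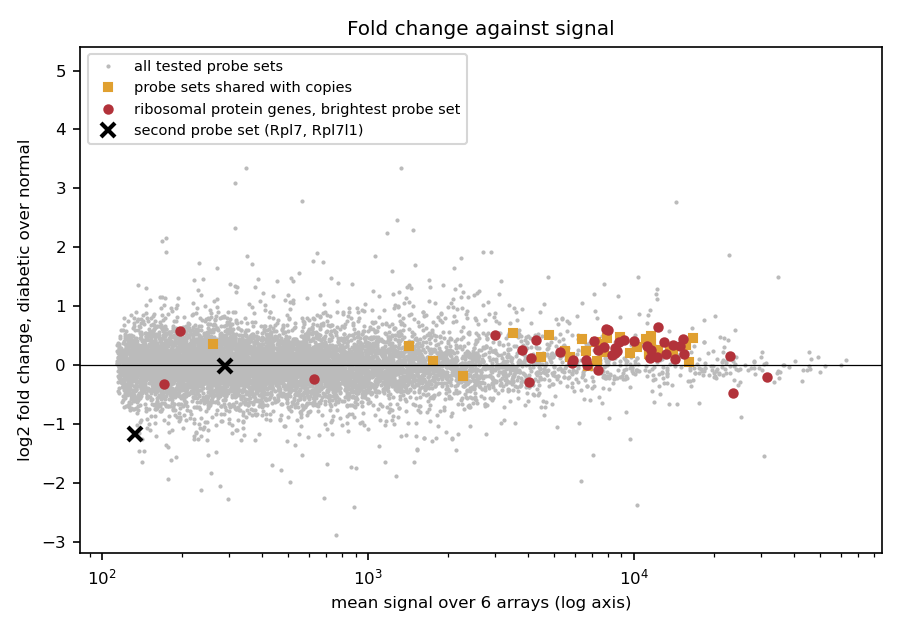
Log2 fold change of diabetic over normal (vertical axis) against the mean signal over 6 arrays (horizontal log axis) for all 9519 tested probe sets in grey, the 41 ribosomal protein genes in red, the 34 ribosomal protein probe sets with several symbols in orange and the second probe sets of Rpl7 and Rpl7l1 as crosses. 38 of the 41 red points lie at 3002.3 or more, and the cross for Rpl7 is at -1.17.

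Ribosomal protein genes have many processed copies in mammalian genomes, and probes can bind mRNA of more than one of them, so the values of single genes are uncertain to that extent. The array held 34 further probe sets whose several annotated symbols include a ribosomal protein, which the choice by a single symbol leaves out. All 34 were tested and 0 passed in limma, 14 at an unadjusted p under 0.05 as higher. Their median log2 fold change was 0.28, with 32 positive and 2 negative, and 16 had all diabetic arrays above all normal ones and 0 below. These counts stand beside 9.54% higher at that p and 12.1% above of all tested probe sets, and 15.6% and 21.4% of those above the 95th percentile of signal. The log2 fold changes ran from -0.18 ± 0.15 (SE) to 0.54 ± 0.15, both of these from probe sets of Rpl36a and a copy.

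The other genes of the translation machinery were read from lists. Of the ribosomal proteins with other names, Rpsa and Rack1 were tested, with log2 fold changes of 0.11 ± 0.14 and 0.15 ± 0.13. The next list was labelled as translation genes with TOP mRNAs, but the motif was not looked for in its genes here. Of its 15 tested genes 0 passed in limma, and 6 were higher and 0 lower at an unadjusted p under 0.05. Their median log2 fold change was 0.25, with 12 positive, and 6 had all diabetic arrays above. Of all tested probe sets 9.54% were higher at that p and 12.1% had all diabetic arrays above. Elongation factor Eef1a1, which brings aminoacyl-tRNA to the ribosome, had 8262.3, 16323.6 and 17935.0 in the diabetic arrays and 8006.9, 10168.7 and 6838.3 in the normal arrays, with overlap through diabetic array 1 (log2 fold change 0.71 ± 0.29). Eef2, which moves the ribosome along the mRNA, had 5844.7, 8267.9 and 7343.9 in the diabetic arrays and 4632.8, 5521.9 and 5516.3 in the normal arrays, with no overlap (log2 fold change 0.44 ± 0.17, limma adjusted p = 0.198). The smallest p of the list was that of Tnrc6a (log2 fold change 0.56 ± 0.20, limma adjusted p = 0.160). Tnrc6a is a partner of Argonaute in gene silencing and not a translation factor. Eef1a1 and Eef2 were named after their values were seen.

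Factors that build ribosomes showed a median near that of the array. Of 47 tested biogenesis factors 0 passed in limma, 3 were higher and 1 lower at an unadjusted p under 0.05, and the median log2 fold change was 0.02. All diabetic arrays lay above in 4 and below in 2. Of all tested probe sets 9.54% were higher and 10.3% lower at that p, and 12.1% had all diabetic arrays above and 13.6% below. Sbds, which helps release a factor that keeps new large subunits from joining, was nearest to the threshold. It had 1352.3, 1210.6 and 1246.4 in the diabetic arrays and 825.1, 787.6 and 861.5 in the normal arrays, with no overlap (log2 fold change 0.61 ± 0.14, limma adjusted p = 0.0512). Of 12 tested genes for RNA polymerase I and its factors, which make ribosomal RNA, 0 passed in limma, with a median log2 fold change of 0.12. At an unadjusted p under 0.05, 3 were higher and 0 lower, and 4 had all diabetic arrays above and 0 below, beside the same shares. Polr1a, the largest subunit of the enzyme, had 919.9, 841.7 and 764.8 in the diabetic arrays and 646.7, 522.7 and 377.6 in the normal arrays (log2 fold change 0.72 ± 0.20, limma adjusted p = 0.0944).

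Of 26 tested regulators of mTORC1 and of TOP mRNAs, 3 rose and 0 fell, beside 1.5% and 1.38% of all tested probe sets. Their median log2 fold change was 0.07, with 16 positive and 10 negative. At an unadjusted p under 0.05 in limma 8 were higher and 2 lower, beside 9.54% and 10.3% of all tested probe sets. All diabetic arrays lay above in 8 and below in 1, beside 12.1% and 13.6%. Eif4ebp1, the repressor of the cap-binding protein that mTORC1 inactivates, had 3322.1, 3771.9 and 3400.0 in the diabetic arrays, against 1086.9, 1090.8 and 802.2 in the normal arrays, far beyond the spread within either group (log2 fold change 1.81 ± 0.17, limma adjusted p = 0.00184). Sesn1, a sestrin that restrains mTORC1 when amino acids are short, had 3038.9, 3550.3 and 2997.7 in the diabetic arrays and 1638.9, 1441.7 and 1033.4 in the normal arrays (log2 fold change 1.23 ± 0.19, limma adjusted p = 0.0130). Ddit4l, another inhibitor of mTORC1, had 2485.5, 2279.7 and 2493.3 in the diabetic arrays and 1700.3, 1286.4 and 1045.7 in the normal arrays (log2 fold change 0.87 ± 0.19, limma adjusted p = 0.0488). These 3 are inhibitors of the pathway or of cap-dependent translation, and in none did the groups overlap. Mtor itself had a log2 fold change of -0.15 ± 0.18, Rps6kb1, which encodes S6 kinase, one of -0.05 ± 0.16 and Larp1, which binds TOP motifs, one of -0.26 ± 0.21, none past the test. Rptor, the mTORC1 subunit that binds its substrates, had a log2 fold change of 0.56 ± 0.20 and Eif4ebp2, a relative of Eif4ebp1, one of 0.53 ± 0.17, with all diabetic arrays above. Eif4e, the cap-binding protein, had one of -0.53 ± 0.17 with all diabetic arrays below, and none of these 3 passed either. These 6 genes were named after their values were seen. Across all the lists, mitochondrial ribosomal proteins included, 3 of 173 tested genes passed as higher, beside 1.5% of all tested probe sets. Without diabetic array 2 or with no filter 1 passed. With the intensity trend 6 were higher and 3 lower, beside 2.84% and 2.7% of all tested probe sets. With a filter at the 80th percentile 6 of 99 were higher and 6 lower, beside 206 and 182 of all 3173 tested probe sets.

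The ribosomes of mitochondria are built from a separate set of nuclear genes. All 71 of these genes on the array were tested, 0 passed in limma, and 2 were higher and 8 lower at an unadjusted p under 0.05. Their median log2 fold change was -0.09, with 27 positive and 44 negative, and 6 had all diabetic arrays above and 17 all below the normal ones. Of all tested probe sets 10.3% were lower at that p, so the 8 lower genes are near that share, and 12.1% had all diabetic arrays above and 13.6% below. Mrpl42, with the smallest p, differed by -0.58 ± 0.16 on the log2 scale (limma adjusted p = 0.0900). Their summed signal was 99482 to 104373 in the diabetic arrays and 109263 to 113978 in the normal arrays. The summed signal of the cytosolic genes was 396799 to 445398 in the diabetic arrays and 360147 to 381418 in the normal arrays. The sums differed between the groups in opposite directions and without overlap, and this difference between the lists was not tested.

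The arrays shared 1 trimmed mean, and markers of some other cell types differed between the groups. Trimmed mean signals were 500.2 on every array, and array medians ran from 180.3 to 191.3. So equal a trimmed mean can come from scaling before deposit, and does not show that the arrays were alike. The 45 bacterial and phage spike-in control probe sets had a median difference of 0.09 on the log2 scale, with all diabetic arrays above the normal ones in 1 and below in 2. Those 3 were among the 27 Bacillus subtilis controls, which had mean signals of 641 or less. The 18 BioB, BioC, BioD and cre controls had a median difference of 0.04 and none was apart. Diabetic array 1 was nonetheless the lowest of all arrays in most of these controls, the exceptions being 2 for BioB and 1 for BioC. In 1 cre control it had 6567.0, against 9588.2 to 13572.3 in the other arrays. In 1 BioD control it had 1639.5, against 2126.1 to 2884.8. Whether this bears on the ribosomal protein signals of that array was not tested. The ratio of 3′ to 5′ probe sets, a sign of RNA integrity, was 1.25 to 1.41 in diabetic and 1.18 to 1.34 in normal arrays for Gapdh, and 1.23 to 1.61 in diabetic and 1.25 to 1.84 in normal arrays for beta-actin. Of 8 tested fibroblast markers 4 fell (Col1a1, Col1a2, Col3a1 and Lum) and 0 rose, and their summed signal was 21260 to 22599 in the diabetic arrays and 33233 to 38033 in the normal arrays. Of 9 tested cardiomyocyte markers Myh7 and Nppa rose and Myh6 fell, with sums of 229199 to 292357 in diabetic and 211138 to 262457 in normal arrays. Of 8 tested endothelial markers 1 fell (Tie1), but 4 had positive and 4 negative log2 fold changes, with a median of 0.10. All diabetic arrays lay above in 1 (Pecam1, log2 fold change 0.68 ± 0.23) and below in 3. Their sums were 10622 to 11562 in diabetic and 12460 to 13887 in normal arrays. Bright genes weigh most on such sums, and Cav1, the brightest, had means of 3394 in diabetic and 5576 in normal arrays. Of the smooth muscle, leukocyte, erythroid and adipocyte markers 0 passed in limma, and at an unadjusted p under 0.05 only 1 smooth muscle marker was lower. The smooth muscle and pericyte markers summed to 3088 to 3729 in diabetic and 3828 to 4841 in normal arrays, and the atrial markers, Nppa among them, to 20566 to 30669 in diabetic and 3871 to 5176 in normal arrays. Without Nppa the atrial markers summed to 792 to 1319 in diabetic and 353 to 1360 in normal arrays, which overlap. The sums of the leukocyte, erythroid and adipocyte markers overlapped between the groups. The part of cell makeup in the ribosomal protein signals was not tested.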

How the data were processed

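The authors deposited linear signal intensities, 1 for each probe set on each array. How they were computed and normalised is not given in the sources used here. With the highest and lowest 2% of probe sets trimmed, all 6 arrays had a mean of 500.2, so the deposited intensities were not scaled again. The 57 control probe sets were left out, and 15866 remained. Symbols came from the platform annotation, and 41 of the 43 genes matched the rat gene table by gene number. Values were taken as log2(intensity + 16), a scale that compresses differences at low signal. Tested probe sets were those whose mean of these log2 values lay above the 40th percentile of all probe sets, 9519 in number.

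The comparison of diabetic with normal used limma 3.58.1 (R 4.3.3): lmFit with a group term alone, then eBayes and two-sided tests, with Benjamini-Hochberg adjustment over all tested probe sets and a threshold of 0.05. Errors are SE for log2 fold changes and SD for signals. The code was tested on simulated data. The design text counts the rats as separate animals. The replicate numbers of the titles were not taken as pairs. Residuals of same-numbered arrays correlated at 0.066, 0.014 and 0.016, which shows no large shared effect but cannot settle whether the rats were paired.

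Genes were named by rule: the 8 highest and the 8 lowest log2 fold changes, the 5 brightest, Rplp0, look-alike symbols, genes whose probe sets differ, and in each pathway list the genes that passed or else the one with the smallest p. Other genes named with values were chosen after their values were seen. The genes, lists and markers were chosen with earlier results of these data known. Tables were handled in Python 3.11.15 and figures drawn with matplotlib 3.10.9. Detection calls were not used here. Precision is limited by the number of arrays.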

Additional observations from a re-analysis of the deposited data

Results flagged for a closer look

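The second probe set of Rpl7 is not the one that stood for the gene, and it was lower in diabetic ventricles. Its signals were 80.8, 58.7 and 87.4 in the diabetic arrays and 178.3, 221.3 and 170.3 in the normal arrays, a log2 fold change of -1.17 (limma adjusted p = 0.0123). The bright probe set of the same gene had a log2 fold change of 0.14. The dim one lay at the 42.5th percentile of signal, near the 40th percentile at which probe sets were left out. Which transcript it reads was not tested.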

How the results depend on the processing

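The median log2 fold change of the ribosomal protein genes stayed positive under every alternative tried, as did those of the large and the small subunit; leaving out 1 array each gave 0.18 to 0.31, 0.18 to 0.31 and 0.15 to 0.18. The small-subunit median moved to 0.066 under quantile normalization. The count of genes past the test was 0 without any 1 array, under pseudocount 1, quantile and median scaling, no filter, a robust prior, array weights and with the replicate block. It was 3 (Rps24, Rpl23a and Rps28, all higher) with a pseudocount of 64, filters at the 60th and 80th percentile, the intensity trend and a threshold of 0.1. It was 9, all higher, with a filter at the 95th percentile, and 1, lower (Rpl7), with the dimmest tested probe set of each gene. Of all tested probe sets 1.5% were higher in the main fit, 2.16% with a pseudocount of 64 and 2.84% with the trend. At the 60th, 80th and 95th percentile 3.44%, 6.49% and 12.2% were higher, and at a threshold of 0.1 3.42%. The count of genes with no overlap was 17 to 28 without 1 array each, both directions together, and 32 of 75 with the several-symbol probe sets added. Fewer arrays separate more easily everywhere. Without diabetic arrays 1, 2 and 3 the diabetic arrays lay above in 27, 18 and 16 genes and below in 1, 2 and 1. The shares above of all tested probe sets were then 18.6%, 16.8% and 16.6%. In the main fit 12.1% of all tested probe sets had all diabetic arrays above and 13.6% below. The shares below without 1 array are not given here. Pathway list genes past the test numbered 3, all higher, and 1 (higher) without a filter, 6 (5 higher) and 12 (6 higher) at the 60th and 80th percentile, 1 (lower) at the 95th, 9 (6 higher) with the trend, 10 (7 higher) at a threshold of 0.1, 2 (higher) with pseudocount 1 and with the replicate block and 1 to 3 without 1 array each. These counts are out of 173 tested list genes in the main fit, and out of 148, 99 and 15 at the 60th, 80th and 95th percentile. The shares of all tested probe sets given above stand beside them too. The block changed no call of a ribosomal protein gene. Of 20 named genes, 5 changed sign somewhere: Rpl35a (-0.0022 under quantile normalization, -0.062 to 0.13 without 1 array), Rps3 (0.044 with array weights, -0.12 to 0.18 without 1 array), Rpl37a (-0.87 to 0.24 without 1 array), Rps4y2 (-0.66 to 0.037 without 1 array) and Rpl7 (-0.52 as the mean of its probe sets, -1.17 from the dimmest). The cause was not tested, except that a stricter filter tests fewer probe sets. The 95th percentile filter, the several-symbol probe sets and the count without look-alikes (16 with no overlap, median 0.25) were chosen after seeing the data. With 3 arrays per group and a median standard error of 0.155, differences of the size seen here are hard to separate from the spread between rats, and dim probe sets such as those of Rpl30 and Rps27l were not tested.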
